A study of Mus musculus with 6 samples.

Results

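The 10 genes described here encode the contractile and mesenchymal cytoskeleton, and were measured in whole mouse liver after deletion of Sox9. They were taken by symbol as a group of myofibroblast and smooth muscle genes, and all 10 were found among the 24411 rows of the expression table. They are the smooth muscle actin Acta2, the transgelins Tagln and Tagln2, the myosin light chain Myl9, the calponin Cnn2, the tropomyosins Tpm1, Tpm2 and Tpm4, the intermediate filament gene Vim and the cytoplasmic actin Actb. All 10 passed the filter on low values, which asked for a mean of 0.5 TPM or more. TPM, a measure of transcript abundance scaled to a fixed library total, divides a gene's reads by its length, so that levels of different genes can be set side by side within a library.

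The study compared 3 control livers, labelled WT, with 3 livers of genotype Alb-Cre+/+;Sox9 flox/flox (Sox9 cKO). In the Sox9 cKO mice Cre is driven by the albumin promoter, which acts in liver epithelial cells, so that stellate cells, fibroblasts and vascular smooth muscle are not the cells in which it is known to act. The labels give no age, no sex and no Cre-negative floxed littermates for the control group, and the design text names C57BL/6J among the strains used. The labels do not state that each library is a separate animal, so p-values describe the spread among these samples only, which may be technical.

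Contractile cells of the liver surround vessels and ducts, and hepatic stellate cells acquire contractile genes when they become myofibroblasts. In these cells actin filaments slide on myosin, tropomyosins and calponins bind along the filaments, and the factor SRF with its myocardin-related coactivators switches the genes on through a DNA motif called the CArG box. Most of the 10 genes are not restricted to contractile cells. Actb, Tpm4, Tagln2, Cnn2 and Vim are also used by leukocytes, endothelial cells and other cells that move or change shape.

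Sox9 itself was at 1.43 to 1.69 TPM in controls and at 0.19 to 0.68 TPM in Sox9 cKO. The libraries differed in sex markers. Control replicates 1 and 2 had 114 and 123 TPM of Xist, which did not exceed 0.02 TPM in the other 4 libraries, while Eif2s3y of the Y chromosome was at 47.6 to 51.6 TPM in those 4. Control replicate 3 is therefore the only control that matches Sox9 cKO in these markers. Across all 12539 tested genes the median of the fitted changes was -0.24 on the log2 scale, a general shift towards lower levels beside which the values below stand. Sequencing depth is unknown, because TPM does not keep it.

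Per length, the 10 genes spanned a wide range of levels. In controls the mean was 293 TPM for Actb, 51.1 for Tagln2, 50.6 for Tpm1, 38.2 for Tpm4, 31.3 for Vim, 12.4 for Tagln, 10.3 for Cnn2, 8.71 for Myl9, 4.97 for Tpm2 and 1.79 for Acta2. Actb stood clear of the rest, and the control values of Tpm1 and Tpm4, of Vim and Tagln and of Myl9 and Tpm2 did not overlap. The ranges of the control values overlapped for the other neighbours in this order, namely Tagln2 with Tpm1, Tpm4 with Vim, Tagln with Cnn2, Cnn2 with Myl9, and Tpm2 with Acta2. In Sox9 cKO the order was the same except that Tagln2, at 18.6 TPM, came after Tpm1 at 35.7 and Tpm4 at 25.8 TPM.

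The contractile label was checked against defining smooth muscle genes. Myh11, the smooth muscle myosin heavy chain, was at 0.28 to 0.72 TPM, Cnn1, the smooth muscle calponin, at 0 to 0.07 TPM and Actg2, the enteric smooth muscle actin, at 0 to 0.42 TPM. Lmod1 and Synpo2, a leiomodin and a synaptopodin of smooth muscle, did not exceed 0.13 TPM. None of these 5 passed the filter. Among the 7 markers of vascular smooth muscle only Smtn and Des were tested. Smtn was at 4.33 to 5.15 TPM in controls and 2.36 to 3.30 TPM in Sox9 cKO. Des was at 2.30 to 2.97 and 1.31 to 1.63 TPM. The RNA of these livers thus held little of those 5 smooth muscle transcripts, in either group, while Smtn and Des were higher. The group is called here by its genes.

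**Figure D1:**
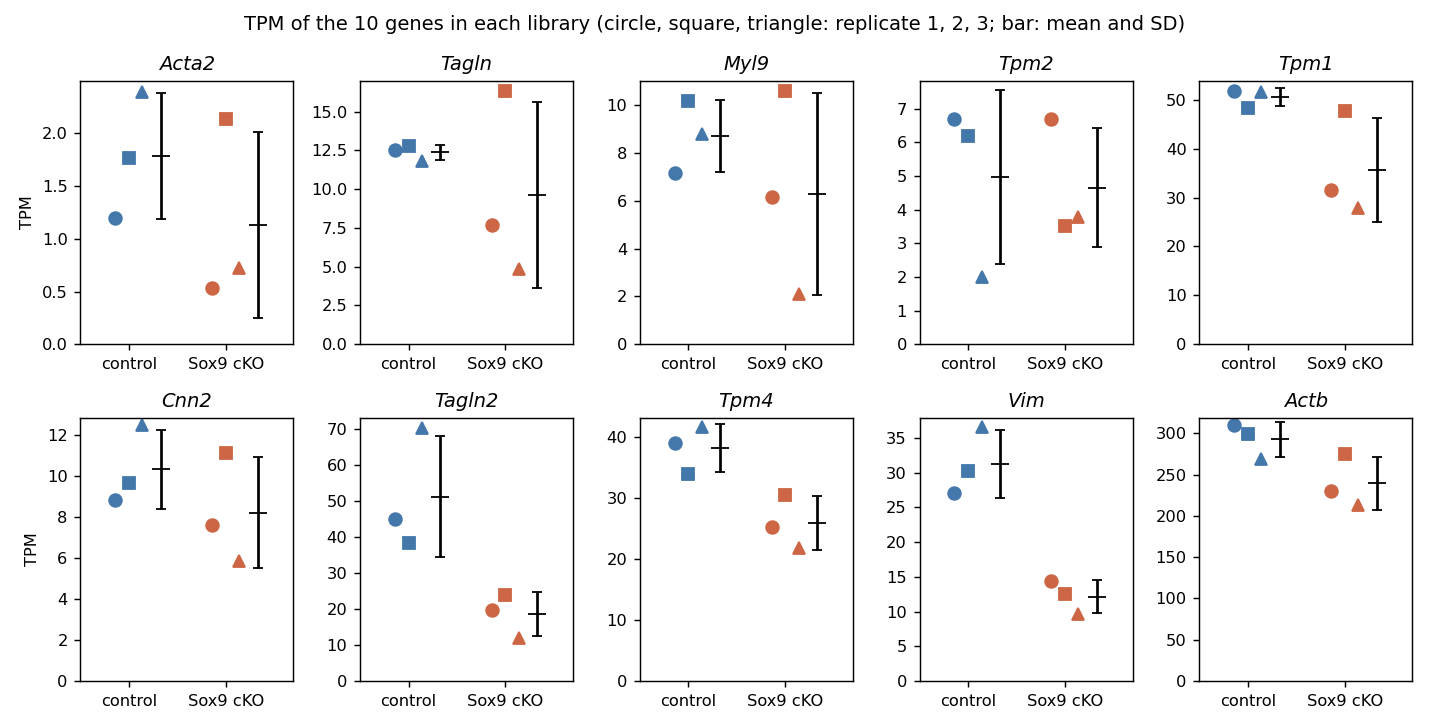
TPM of each of the 10 genes in the 3 control libraries (blue) and the 3 Sox9 cKO libraries (orange), each panel with its own axis from 0, and bars for the mean and SD. Vim and Tagln2 separate the groups widely, Tpm1 and Tpm4 separate them narrowly, and Sox9 cKO replicate 2 (orange square) lies high for Acta2, Tagln, Myl9, Cnn2 and Tpm1.

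In Sox9 cKO, 2 of the 10 genes fell and 0 rose in the limma test over all genes, with an adjusted p below 0.05. Of all tested genes, 8.76% were called lower and 0.821% higher by the same rule. The genes that fell were Vim and Tagln2. The groups did not overlap, with every Sox9 cKO library lower, for 4 of the 10 genes, against 33.7% of all tested genes, so this share was near the background. The fitted change was below 0 for 9 of the 10, as for 77.3% of all tested genes, and the same 9 were below 0 in each of 18 other settings. The median log2 fold change of the 10 was -0.55. At an unadjusted p below 0.05 there were 4 lower and 0 higher genes, where 27.2% of all tested genes were lower by that rule.

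Vim (chromosome 2, 13573927 to 13582826 of mm10, plus strand) encodes vimentin, the intermediate filament protein of mesenchymal, endothelial and blood cells. It was at 27.0, 30.2 and 36.6 TPM in control replicates 1 to 3 and at 14.4, 12.5 and 9.58 TPM in Sox9 cKO replicates 1 to 3. All 3 Sox9 cKO values lay below all controls, by a gap larger than the range within either group. The mean went from 31.3 ± 4.86 to 12.2 ± 2.42 TPM (SD, n = 3 each), or 38.8% of the control mean. The fitted log2 change was -1.34 (SE 0.19, limma adjusted p = 0.00967).

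The Vim call held after median centring and quantile normalization, which remove the general shift. After median centring it was 1 of 10 genes called lower, against 2.04% of all tested genes. It was lost without control replicate 2 (adjusted p = 0.0531) and with a sex-marker term (0.0585), where the log2 fold changes were -1.36 and -1.57. Over the 18 other settings the log2 fold change of Vim was between -1.57 and -1.06 and the adjusted p between 0.00297 and 0.194. Against control replicate 3 alone, the Sox9 cKO mean was 33.2% of the control level.

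Tagln2 (chromosome 1, 172500047 to 172507380, plus strand) encodes transgelin-2, an actin-binding protein of non-muscle cells. The control values were 44.9, 38.3 and 70.2 TPM and the Sox9 cKO values 19.8, 24.0 and 12.0 TPM. The groups did not overlap, and control replicate 3 was well above the other controls. The mean went from 51.1 ± 16.8 to 18.6 ± 6.07 TPM (SD, n = 3 each), and the fitted log2 change was -1.44 (SE 0.30, limma adjusted p = 0.0293).

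The Tagln2 call was less stable. It was lost in 9 of 18 other settings, among them median centring (adjusted p = 0.0970), quantile normalization (0.0772), the replicate block (0.0584), the sex-marker term (0.0726) and leaving out control replicate 1 (0.0942), 2 (0.0715) or 3 (0.0820) or Sox9 cKO replicate 1 (0.0620). Its log2 fold change stayed between -1.94 and -1.17 over all 18. The exact two-sided permutation test over the 6 samples gave p = 0.1 for Vim and for Tagln2, the smallest value that 3 against 3 samples allow.

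**Figure D2:**
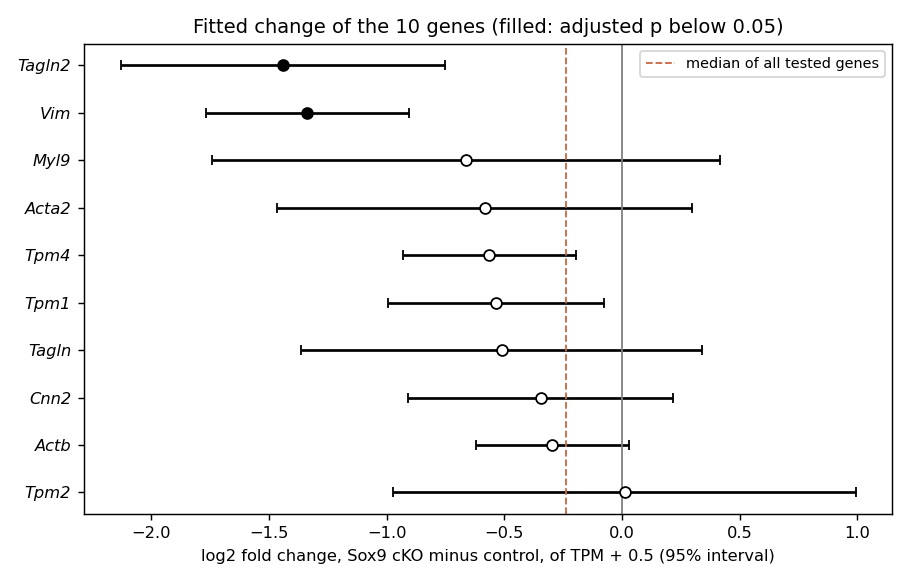
Fitted log2 fold change of TPM + 0.5 (Sox9 cKO minus control) with its 95% interval for each gene, with the median of all tested genes as a dashed line at -0.24. Only the intervals of Tagln2 and Vim lie wholly below that line, and those of Tpm4 and Tpm1 lie below 0.

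The tropomyosins are coiled-coil proteins that lie along actin filaments and set which myosins and other proteins can bind. Tpm1 (chromosome 9, 67022590 to 67049406, minus strand) had control values of 51.8, 48.4 and 51.5 TPM and Sox9 cKO values of 31.5, 47.8 and 27.9 TPM. Its controls were close together, and Sox9 cKO replicate 2 lay just under the lowest of them. Its fitted change on the log2 scale was -0.54 (SE 0.20, 95% interval -0.99 to -0.08, limma adjusted p = 0.121).

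Tpm4 (chromosome 8, 72134975 to 72153142, plus strand), a tropomyosin of non-muscle cells, had control values of 39.0, 34.0 and 41.6 TPM and Sox9 cKO values of 25.2, 30.5 and 21.8 TPM. The groups did not overlap, and the gap between them was narrow. In the fit, the change in log2 units was -0.56 (SE 0.16, 95% interval -0.93 to -0.20, adjusted p = 0.0624).

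Tpm2 (chromosome 4, 43514711 to 43523765, minus strand), the beta tropomyosin of muscle, had control values of 6.71, 6.19 and 2.00 TPM and Sox9 cKO values of 6.69, 3.51 and 3.78 TPM. The lowest of all 6 values was that of control replicate 3, and the groups overlapped. The fitted log2 change was 0.01 (SE 0.42, 95% interval -0.97 to 0.99, limma adjusted p = 0.989), so that changes of nearly 2-fold in either direction were within its error. The sign turned without control replicate 3 (-0.48), without Sox9 cKO replicate 1 (-0.25) and with a pseudocount of 1 TPM (-0.0015).

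The tropomyosins were also set against each other within each library. Of the summed TPM of Tpm1 to Tpm4, Tpm3, the other member of the family, made up 42.1% to 44.1% in the control libraries and 42.8% to 44.1% in the Sox9 cKO libraries. Tpm1 made up 30.7% ± 0.342 in controls and 30.3% ± 2.16 in Sox9 cKO (SD, n = 3 each). Tpm4 made up 23.1% ± 1.37 and 22.3% ± 1.27. Tpm2 was the minor form, at 1.18% to 3.98% in controls and 2.40% to 6.04% in Sox9 cKO. None of these 4 shares differed between the groups beyond the spread of the libraries (exact two-sided permutation p of 0.4 to 1.0).

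Acta2, Tagln and Myl9 varied more within the Sox9 cKO group than within controls, though Acta2 also varied among controls (coefficient of variation 33.3%, and 77.9% in Sox9 cKO). Acta2 (chromosome 19, 34241090 to 34255590, minus strand), the actin of smooth muscle and myofibroblasts, had control values of 1.20, 1.77 and 2.39 TPM and Sox9 cKO values of 0.53, 2.14 and 0.72 TPM. Sox9 cKO replicates 1 and 3 lay below every control, and replicate 2 lay within the control range. The 95% interval of its log2 fold change, -1.46 to 0.30, includes 0.

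Tagln (chromosome 9, 45929619 to 45936058, minus strand), which encodes the smooth muscle transgelin SM22, had control values of 12.5, 12.8 and 11.8 TPM and Sox9 cKO values of 7.70, 16.3 and 4.82 TPM. The coefficient of variation was 4.15% in controls and 62.3% in Sox9 cKO. Replicates 1 and 3 of Sox9 cKO were below every control, and replicate 2 was above every control. Its fitted change on the log2 scale was -0.51 (SE 0.37, 95% interval -1.36 to 0.34, limma adjusted p = 0.385).

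Myl9 (chromosome 2, 156775420 to 156781658, plus strand), the myosin regulatory light chain whose phosphorylation triggers smooth muscle contraction, had control values of 7.16, 10.2 and 8.81 TPM and Sox9 cKO values of 6.14, 10.6 and 2.11 TPM. Again replicate 2 of Sox9 cKO was above every control and replicates 1 and 3 were below. In the fit, the change in log2 units was -0.66 (SE 0.47, 95% interval -1.74 to 0.42, limma adjusted p = 0.374).

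Cnn2 (chromosome 10, 79988584 to 79996062, plus strand), a calponin found in smooth muscle and in non-muscle cells, had control values of 8.85, 9.67 and 12.5 TPM and Sox9 cKO values of 7.64, 11.2 and 5.85 TPM. Replicate 2 of Sox9 cKO was within the control range. The fitted log2 change was -0.35 (SE 0.24, 95% interval -0.91 to 0.22, limma adjusted p = 0.372).

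The promoters of these genes were examined for the CArG box. RefSeq windows of 250 bases before the annotated start (GRCm38.p6, the assembly of mm10) were at hand for 8 of the 10 genes, without Tagln and Actb. The CArG box was searched as CC, then 6 bases that are A or T, then GG. This pattern reads alike on both strands. Cnn2 and Myl9 held a full match, as did 1.47% of the 32851 windows of all genes. When 1 of the 6 core bases could be G or C, Acta2 joined them with 2 matches, and 8.59% of all windows held at least 1. The stretches below are shown because they hold the matches, printed in capitals, and they end before the start in both RefSeq and GENCODE for Myl9 and Cnn2. For Acta2 the 30 bases round each match are given, since GENCODE places the gene's start 217 bases upstream of the RefSeq start.

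Cnn2, chr10:79988350-79988583, plus strand: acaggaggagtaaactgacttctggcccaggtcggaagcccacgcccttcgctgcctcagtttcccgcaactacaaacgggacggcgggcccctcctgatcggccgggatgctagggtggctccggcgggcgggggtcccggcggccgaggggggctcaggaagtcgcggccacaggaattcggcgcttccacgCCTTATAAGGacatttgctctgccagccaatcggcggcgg
Myl9, chr2:156775214-156775419, plus strand: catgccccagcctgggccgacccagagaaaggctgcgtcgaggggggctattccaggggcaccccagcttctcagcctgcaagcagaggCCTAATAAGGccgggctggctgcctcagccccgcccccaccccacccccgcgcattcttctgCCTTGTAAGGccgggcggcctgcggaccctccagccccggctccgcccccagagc
Acta2, chr19:34255438-34255467, minus strand: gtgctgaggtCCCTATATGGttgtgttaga
Acta2, chr19:34255388-34255417, minus strand: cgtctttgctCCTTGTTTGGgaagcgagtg

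Counted from the RefSeq start, the Cnn2 match begins 56 bases upstream, the Myl9 matches 161 and 99 bases upstream, and the Acta2 matches 84 and 34 bases upstream. The 161-base match of Myl9 is full, and that at 99 bases has 1 core base other than A or T. The windows of Vim, Tagln2, Tpm1, Tpm2 and Tpm4 did not contain these letters. GENCODE places the start upstream of the RefSeq start by 384 bases for Vim and 313 for Tpm4. The offset is 193 to 211 bases for Tpm1, Tagln2 and Tpm2. These windows thus lie wholly or mostly after the GENCODE start, and sequence further upstream was not searched.

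Actb (chromosome 5, 142903115 to 142906754, minus strand), the cytoplasmic beta actin, was the most abundant of the 10. The control values were 309.9, 298.8 and 269.5 TPM and the Sox9 cKO values 229.8, 275.3 and 212.7 TPM, so that replicate 2 of Sox9 cKO lay above the lowest control. Its fitted change on the log2 scale was -0.30 (SE 0.14, limma adjusted p = 0.200), close to the median of all tested genes. Acta2 was 0.00622 ± 0.00251 of the Actb level in controls and 0.00449 ± 0.00290 in Sox9 cKO (SD, n = 3 each, exact permutation p = 0.5). Acta2 and Actb also belong to a family with very similar coding sequences, and it was checked how far reads could be confused. Of the distinct 75-base windows of their GENCODE transcripts, 0 of 2121 for Acta2 and 48 of 3032 for Actb occurred exactly in the transcript of another gene. Tpm4 shared 9.11% of its windows with a single other annotated gene, Gm7809, and the other 7 genes shared 0. The related Actg1 shared 33.5%, so its values are uncertain.

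The ratio of the transgelins was also taken within each library. Tagln was 0.279, 0.334 and 0.168 of the Tagln2 level in controls and 0.390, 0.681 and 0.401 in Sox9 cKO. Every Sox9 cKO library had a higher ratio than every control. The exact two-sided permutation p was 0.1, the smallest possible, and 0.6 after Benjamini-Hochberg adjustment over the 6 ratios compared.

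**Figure D3:**
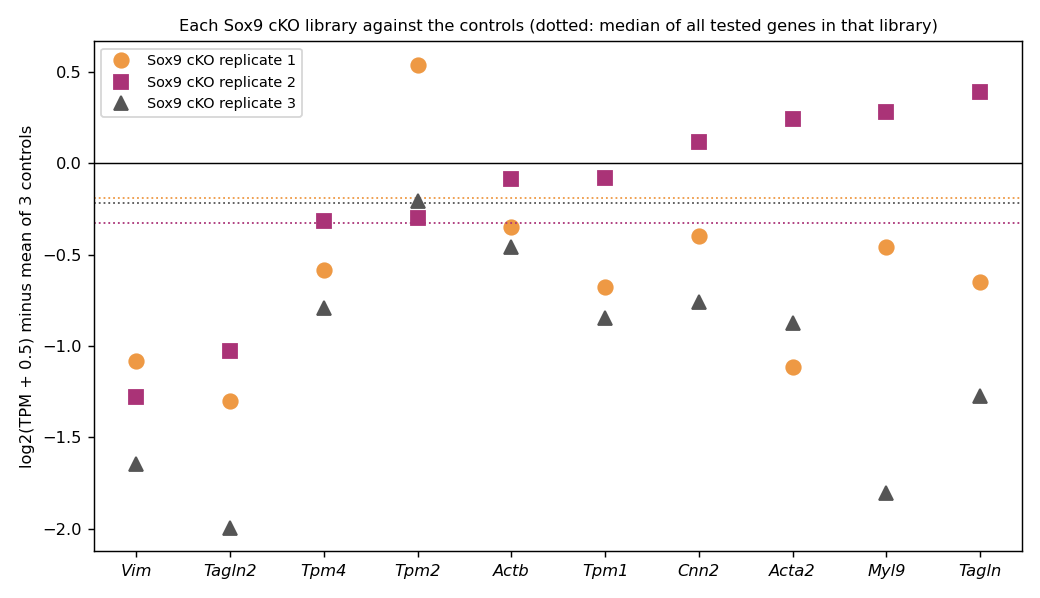
For each gene, the log2(TPM + 0.5) of each Sox9 cKO library minus the mean of the 3 controls, with dotted lines for the median of all tested genes in that library. Replicate 2 lies above the control mean for Cnn2, Acta2, Myl9 and Tagln, and all 3 libraries lie below -1.0 for Vim and Tagln2.

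The Sox9 cKO libraries were not alike in these genes. Replicate 2 had the highest value of its group for 8 of the 10 genes, all but Vim and Tpm2, while over all tested genes it was the highest in 27.9% and the lowest in 48.3%. Replicate 3 had the lowest value of its group for 8 of the 10, against 32.3% of all tested genes. The median log2 difference of the 10 genes from the control mean was -0.62 in replicate 1, -0.08 in replicate 2 and -0.86 in replicate 3. The corresponding medians over all tested genes were -0.19, -0.32 and -0.22. Replicate 2 was thus the library nearest to the controls in the 10 genes and the farthest in the median gene.

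The count of 2 genes called lower depended on single libraries of both groups. It was 1 without control replicate 1, control replicate 3 or Sox9 cKO replicate 1, and leaving out Sox9 cKO replicate 3 gave 2. Of all 12539 tested genes, 158, 267, 591 and 1003 were called lower in these fits, in that order. Without Sox9 cKO replicate 2, 5 of the 10 genes fell, with Tagln (adjusted p = 0.0451), Tpm1 (0.0195) and Tpm4 (0.0404) beside Vim and Tagln2, against 5.73% of all tested genes called lower in that fit. Tagln then had a log2 fold change of -0.96 in place of -0.51, Acta2 of -0.99 and Myl9 of -1.13. Without Sox9 cKO replicate 3 they moved the other way, to -0.13 for Tagln, -0.44 for Acta2 and -0.09 for Myl9, and the median of the 10 genes was -0.30 in place of -0.55. Without control replicate 2, 0 of the 10 passed in limma, against 0.829% of all tested genes called lower, and 3 were lower at an unadjusted p below 0.05, against 19.6%. With the sex-marker term 0 passed, against 0.391%. In that fit 3 were lower and 1 higher at an unadjusted p below 0.05, against 15.3% and 2.62% of all tested genes. Both the sex-marker fit and a fit without control replicates 1 and 2 rest on control replicate 3 as the only matching control, which is assumed to vary like the other libraries.

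Tagln2 and Vim also had the lowest relative levels when control replicate 3 alone was the reference. The Sox9 cKO mean was 26.5% of that library's level for Tagln2 and 33.2% for Vim. It was 47.3% for Acta2, between 62.1% and 88.8% for Tagln, Myl9, Cnn2, Tpm1, Tpm4 and Actb, and 233% for Tpm2. Control replicates 1 and 2 differed from control replicate 3 by -0.75 for Tagln2 and 1.47 for Tpm2 on the log2 scale, the largest such gaps among the 10.

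Other genes of the actomyosin machinery were compared through lists chosen by function, with earlier results of these data known. Their counts are therefore descriptions and no independent comparison. The smooth muscle contractile list had 12 genes, of which 7 were tested, 1 fell and 0 rose, a share near the 8.76% of all tested genes called lower. The gene that fell was Csrp1, a LIM protein of actin bundles, which went from 20.7 ± 1.97 to 10.2 ± 1.06 TPM (SD, n = 3 each, fitted log2 change -0.98, SE 0.14, limma adjusted p = 0.0109). In this list 0 genes passed after median centring or quantile normalization, without control replicate 2, with the sex-marker term or without both control libraries with Xist, where 2 to 4 were lower at an unadjusted p below 0.05 in limma. Smtn, smoothelin, had a fitted log2 change of -0.66 (limma adjusted p = 0.0544) and Des, desmin, of -0.69 (adjusted p = 0.0522), each with all Sox9 cKO values below all controls. Cald1, caldesmon, was at 112 to 120 TPM in controls and 86.8 to 104 TPM in Sox9 cKO (adjusted p = 0.181), and Mylk, the kinase that phosphorylates Myl9, overlapped between the groups. The list's median log2 fold change was -0.52.

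Non-muscle actomyosin and actin-binding genes had more calls. Of 22 tested genes 9 fell and 0 rose, with a median log2 fold change of -0.51 beside -0.24 for all tested genes and 8.76% of all tested genes called lower. Tmsb4x, thymosin beta 4, which holds actin monomers, had control values of 435, 452 and 411 TPM and Sox9 cKO values of 203, 179 and 218 TPM (fitted log2 change -1.11, SE 0.13, adjusted p = 0.00571). Arpc1b, a subunit of the actin-branching ARP2/3 complex abundant in blood cells, was at 63.9 to 74.2 and 27.8 to 35.4 TPM (-1.12, SE 0.14, adjusted p = 0.00668). Myh9, the heavy chain of non-muscle myosin, was at 48.8 to 64.6 and 26.6 to 28.6 TPM (-0.98), and Flna, filamin A, which crosslinks actin, at 9.47 to 10.1 and 4.05 to 5.23 TPM (-0.99).

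Actn1, Cotl1, Capg, Tmsb10 and Myl12b were the other genes of that list that fell, named outside the rule to complete the count. Actg1, the cytoplasmic gamma actin, had a fitted log2 change of -0.69 (limma adjusted p = 0.0770). Myl6 (-0.06), Cfl1 (-0.14) and Zyx (-0.10) had values near 0 and did not pass. After median centring 3 genes of the list passed, against 2.04% of all tested genes, and without control replicate 1 or 2 there were 3, against 1.26% and 0.829%. With the sex-marker term 1 passed, against 0.391%. Without both control libraries with Xist, the list's median log2 fold change was -0.63, beside -0.21 for all tested genes. That fit rests on control replicate 3 alone.

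Among regulators, 1 of 10 tested genes fell and 0 rose, a share near the 8.76% of all tested genes called lower. Rhoc, a small GTPase that acts on actin, went from 25.4 ± 4.40 to 12.9 ± 3.41 TPM (fitted log2 change -0.97, SE 0.21, limma adjusted p = 0.0321), a call that was lost after median centring and when any 1 library other than Sox9 cKO replicate 2 was left out. Srf, the factor that binds the CArG box, was at 4.25 to 6.86 TPM in controls and 3.95 to 4.98 TPM in Sox9 cKO (-0.18, adjusted p = 0.590). Its coactivator gene Mkl1 had a fitted log2 change of -0.53 (limma adjusted p = 0.0781). Myocd, the coactivator myocardin of smooth and cardiac muscle, was listed at 0 in every library. The list's median was -0.48.

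**Figure D4:**
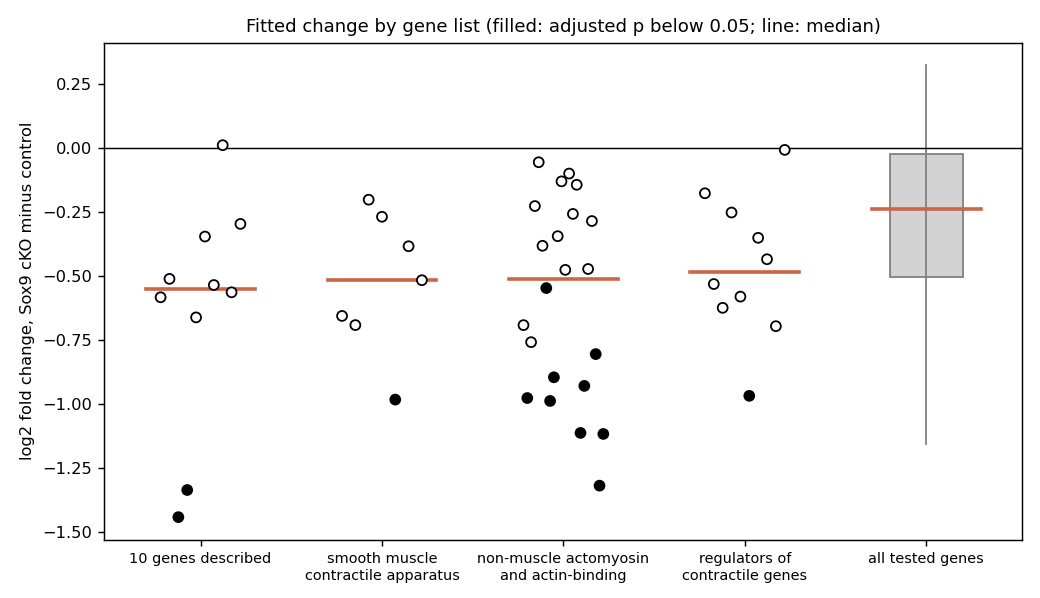
Fitted log2 fold change (Sox9 cKO minus control) of each tested gene in the 4 lists, with filled circles for an adjusted p below 0.05 and lines for medians, beside all tested genes (box from the 25th to the 75th percentile, whisker from the 5th to the 95th). The medians of the 4 lists lie between -0.55 and -0.48, near the 25th percentile of all genes at -0.50.

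Markers of the cell types that use these genes also differed between the groups. In bulk liver, fewer cells of a type and less RNA per cell cannot be told apart. The counts of called markers stand beside 8.76% of all tested genes called lower and 0.821% called higher. Marker calls were not followed in the other settings. Over all tested genes, the lower calls went from 1099 to 49 with the sex-marker term. Of 8 leukocyte and Kupffer cell markers 6 were called lower, and their summed level was 397 to 621 TPM in controls and 123 to 283 TPM in Sox9 cKO. The lowest control sum was that of control replicate 3, at 73.0% of the control mean, and this library was the lowest control for 7 of the 8 markers. Of 8 stellate cell markers 5 were called lower, with sums of 190 to 217 and 101 to 161 TPM. Lrat, which makes the retinyl esters stored by stellate cells, had a fitted log2 change of -1.22 (limma adjusted p = 0.0255) and Pdgfrb, their growth factor receptor, of -1.16 (adjusted p = 0.0114).

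Of 5 tested portal fibroblast markers 1 was called lower, Eln, which encodes elastin (-1.39, limma adjusted p = 0.0202), and of 6 endothelial markers 2, Cdh5 and Stab2. Among portal fibroblast markers Gli1 was at no more than 0.12 TPM. The summed portal fibroblast markers were at 12.4 to 19.5 TPM in controls and 6.94 to 9.49 TPM in Sox9 cKO, and the summed endothelial markers at 136 to 153 and 81.6 to 118 TPM. Of 5 cholangiocyte markers and of 2 tested mesothelial markers 0 passed, and the mesothelial sums, 3.27 to 5.44 and 3.30 to 5.63 TPM, overlapped throughout. Of 5 hepatocyte markers 1 was called higher, Serpina1c, and 0 lower, with 3 of the 5 fitted changes below 0 and a median of -0.27. Alb, albumin, was at 73.4% of the control mean in Sox9 cKO without overlap between the groups (limma adjusted p = 0.330).

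Several marker lists ordered the Sox9 cKO libraries differently from the 10 genes. Replicate 2, the highest of its group for 8 of the 10 genes, was the lowest of its group for 8 of 8 leukocyte and Kupffer cell markers, 6 of 6 endothelial markers and 6 of 8 stellate cell markers. For cholangiocyte markers it was the highest of its group for 3 of 5 and the lowest for 2 of 5, and in the smooth muscle contractile list it was the highest for 3 of 7 and the lowest for 3 of 7. The non-muscle actomyosin list ran closer to the 10 genes. There replicate 2 was the highest Sox9 cKO library for 10 of 22 genes and the lowest for 4, against 27.9% and 48.3% of all tested genes. Replicate 3 was the lowest for 14 of 22, against 32.3%. In replicate 2 the summed stellate cell markers stood at 49.1% of the control mean and the summed vascular smooth muscle markers at 53.7%. The summed 10 genes, of which Actb is the main part, stood at 86.4% in that library. The summed smooth muscle contractile list was at 195 TPM there, above 169 and 173 TPM in Sox9 cKO replicates 1 and 3, beside a control mean of 235 TPM. For Vim, replicate 2 lay between the other Sox9 cKO libraries. The part of these cell types in the values of the 10 genes was not tested.

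**Figure D5:**
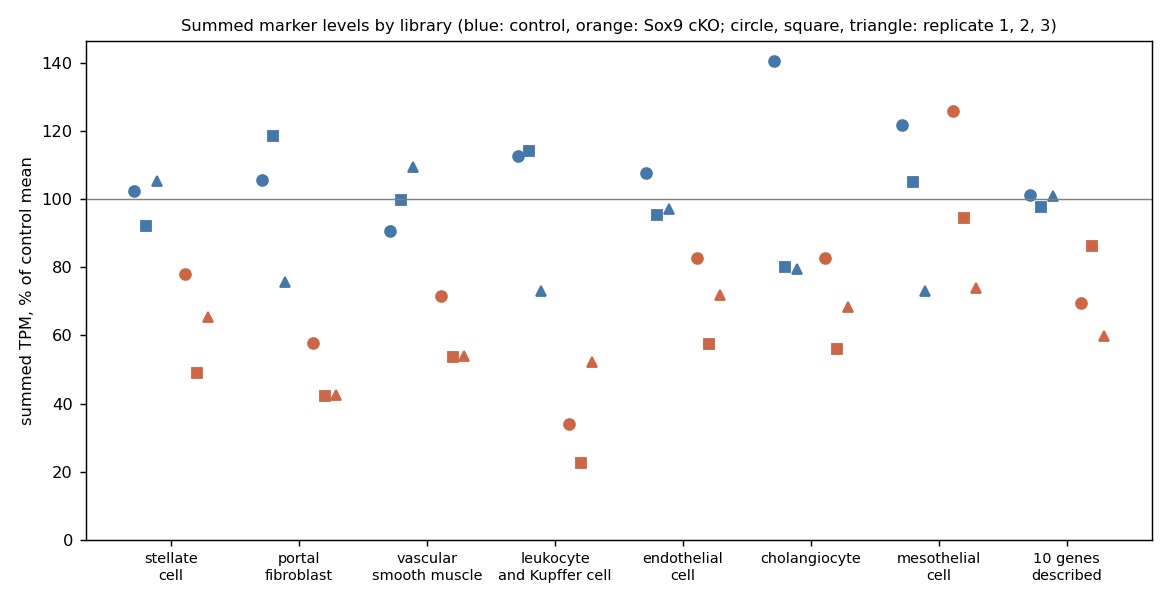
Summed TPM of each marker list in each library as a percentage of the control mean, with controls in blue and Sox9 cKO in orange. Sox9 cKO replicate 2 (orange square) is the lowest library for stellate cell markers at 49.1% and for leukocyte and Kupffer cell markers at 22.7%, and the highest Sox9 cKO library for the 10 genes at 86.4%.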

How the data were processed

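Liver RNA of 3 control and 3 Sox9 cKO samples was sequenced from stranded mRNA libraries. Per the submitters' processing notes, reads were trimmed with Trim Galore 0.5.0 and cutadapt 1.16 and aligned to mm10 with STAR 2.6.0a, and RSEM 1.3.1 gave the TPM values that the authors deposited, 1 column per library. What annotation and strand setting RSEM had is not given in the sources used here, so antisense overlaps are uncertain. Columns were matched to samples by the library numbers in the labels.

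The 12539 genes whose mean reached 0.5 TPM were transformed to log2(TPM + 0.5) and fitted with group as the only term in limma 3.58.1 (R 4.3.3), with eBayes and its variance trend. Tests were two-sided, with Benjamini-Hochberg adjustment over all tested genes and a threshold of 0.05. Fold changes are on that log2 scale and understate changes of low genes. Single values and ratios were compared by exact permutation tests. The fit was tested on data simulated from these 12539 genes, and called 59 of 100 genes given a 2-fold change and 92 of 100 given a 4-fold change. It also called 10 unchanged genes. The changed genes were drawn from those with higher means than Acta2 and Tpm2, so the shares do not cover these genes. The simulated noise was independent between libraries, with no general shift and no sex difference. Positions come from GENCODE M21 and promoters from RefSeq. Figures used matplotlib 3.10.9 in Python 3.11.15.

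The 10 genes and the lists were chosen with earlier results of these data known. The text names the 10 genes, Sox9, their family genes, the sex-linked genes and, from each list, up to 4 genes past the threshold, or the 2 with the largest change where none passed. Other genes were named after their values were seen. Alternatives were other pseudocounts, filters, scalings and variance settings, array weights, a replicate block, leaving out libraries and a sex-marker term.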

Additional observations from a re-analysis of the deposited data

How the results depend on the processing

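Of 180 values for the 10 genes in 18 other settings, 159 kept their direction and their side of the threshold, 12 lost a call, 6 gained one and 3, all of Tpm2, changed sign (-0.0015 with a pseudocount of 1, and from -0.48 to 0.28 with a library left out). The number of the 10 genes called lower was 1 after median centring, after quantile normalization and with the replicate block. It was 5 with array weights, where 2312 of 12539 tested genes were called lower, and 0 with the sex-marker term. In the sex-marker fit 3 were lower and 1 higher at an unadjusted p below 0.05 in limma, against 15.3% and 2.62% of all tested genes. Leaving out 1 library gave 0 to 5 of the 10 genes called lower. Without both control libraries with Xist, control replicate 3 is the only control, and the median log2 fold change of the 10 genes was -0.66.

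For the smooth muscle list the count was 2 with a pseudocount of 1, 3 without the variance trend, 5 with array weights, 0 after median centring (3 at an unadjusted p below 0.05 in limma), 0 after quantile normalization (2) and 0 in both sex-related fits (3 each), and 0 to 2 with a library left out. For non-muscle actomyosin genes it was 3 after median centring, 4 after quantile normalization, 14 with array weights and 1 with the sex-marker term. With a library left out it was 3 to 9. For the regulators it was 3 with array weights, 0 after median centring (1 unadjusted), after quantile normalization (1), with the replicate block (5), with the sex-marker term (2) and without both control libraries with Xist (1), and 0 to 1 with a library left out.

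Over all tested genes, those called lower numbered 256 after median centring, 725 after rescaling without the 50 most abundant genes, 215 after quantile normalization, 2312 with array weights, 563 with the replicate block, 49 with the sex-marker term and 18 without both control libraries with Xist, and 104 to 1003 with a library left out. Those called higher numbered 252, 21 and 9 with array weights, the sex-marker term and without both control libraries with Xist, and 32 to 107 with a library left out. Median centring gave 256 lower and 146 higher calls, and quantile normalization 215 and 120, against 1099 and 103. The cause of these changes was not tested.

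Same-numbered libraries did not deviate together (correlations of deviations across genes of -0.0446, 0.00354 and -0.0269), and control replicate 1 correlated best with Sox9 cKO replicate 3 (0.0544). No pairing by number was seen, but 3 libraries a group are too few to exclude it. The replicate block left Vim as the only call among the 10. Depth is unknown, and 3 libraries a group limit the precision.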
